A study of Homo sapiens with 8 samples.

Results

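Expression of 41 genes of glycolysis and of glucose and lactate transport was compared between control SKBR3 cells and SKBR3 cells in which FOXA1 was knocked down. The genes were chosen by name: each of the 41 listed symbols matched exactly 1 row of the deposited count table, which held 30434 genes. SKBR3 is an established line of human breast cancer cells with an amplified ERBB2 (HER2) gene, and FOXA1 is a pioneer transcription factor of the forkhead family that opens chromatin in luminal breast cells. The control group held 4 libraries of SKBR3 cells whose genotype is given as WT. The knockdown group held 4 libraries of a stable SKBR3 line that expresses short hairpin RNAs against FOXA1, brought in by commercial lentiviruses carrying 3 separate hairpins. Both groups grew in the same serum-containing DMEM with GlutaMAX, and no drug, oxygen or glucose treatment is named. Whether the controls carried a control vector, and whether the replicates came from separate cultures, is not stated, so p-values measure the spread between these libraries, which may be technical. The knockdown cells are a stable line, so the loss of FOXA1 and what went with making that line cannot be told apart.

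Glycolysis splits glucose into pyruvate in the cytosol. Glucose enters through the SLC2A (GLUT) carriers, hexokinase traps it as a phosphate, phosphofructokinase commits it to the pathway, and pyruvate kinase releases the end product. Pyruvate is then reduced to lactate by lactate dehydrogenase and leaves through the SLC16A (MCT) carriers, or it enters the mitochondria through the pyruvate dehydrogenase complex, which the PDK kinases switch off. Nearly every step has several isozymes, encoded by separate genes, and tumour cells often use a different set from that of the tissue they came from.

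The control libraries held 21838121 to 23786684 counts each and the knockdown libraries 19087878 to 23503753. The targeted gene checked the labels: FOXA1 was at 189 to 193 CPM (counts scaled to a library total of 1000000) in the control libraries and at 3.56 to 4.26 CPM in the knockdown libraries. The 7 SKBR3 markers, luminal and ERBB2-amplicon genes, were all above 1 CPM in both groups. Their summed levels were 18640 to 20755 CPM in control and 11609 to 12505 CPM in knockdown. Within that list the genes split. ERBB2 fell from a mean of 7308 to 1340 CPM, KRT19 from 2645 to 723, KRT7 from 2202 to 637 and GRB7 from 363 to 125. KRT8 rose from 4519 to 5619 CPM, KRT18 from 2312 to 3457 and EPCAM from 179 to 226. Markers of other cell types were low but did move: the summed CPM of 4 basal epithelial markers was 1.14 to 1.47 in control and 8.76 to 10.19 in knockdown, of 5 fibroblast markers 5.27 to 6.98 and 10.8 to 11.9, of 3 endothelial markers 20.7 to 22.1 and 19.7 to 22.4, and of 4 leukocyte markers 5.45 to 7.24 and 0.972 to 2.08. A few genes carried these shifts: TP63 went from a mean of 0.147 to 7.86 CPM and CD68 from 4.94 to 0.589. Among the fibroblast genes COL3A1 went from 0.022 to 4.32, PDGFRB from 0.410 to 2.83 and COL1A1 from 5.38 to 4.33. Among the endothelial genes VWF went from 5.22 to 0.845 and CDH5 from 16.1 to 20.1. No marker in the table was at 0 in every library of a group, and the part of these shifts in the results below was not tested. Control replicate 3 differed more from its group than the rest did, with a chi-square per degree of freedom of 4.81 to 6.21 against them where the other control pairs gave 2.16 to 2.38. In bulk RNA, fewer cells that express a gene and less of its RNA per cell cannot be told apart.

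Of the 41 genes, 39 had enough counts to be tested, and SLC16A7 and HKDC1 did not. With edgeR's quasi-likelihood test at an adjusted p of 0.05, 16 of the 39 were higher in knockdown, 19 were lower, and 4 (SLC2A4, PFKL, PGK1 and PDK4) did not pass. That is 89.7% of the members, beside 77.1% of all 16430 genes tested (39.4% higher and 37.7% lower), so most genes of any kind passed in this comparison. At a change of at least 2-fold the members stood at 23.1% beside 28.3% of all genes: SLC2A3, SLC16A1, PFKP, TIGAR, ENO2 and FBP1 were higher (14.9% of all genes were), and SLC2A1, SLC2A10 and PDK3 were lower (13.4% of all genes were). The groups did not overlap for 34 of the 39, beside 72.0% of all genes. The median log2 fold change was -0.12 over the members and 0.02 over all genes. When genes averaging under 50 counts were set aside, 32 of 34 members (94.1%) passed, beside 82.6%, and 6 (17.6%) changed at least 2-fold, beside 23.5%. Without control replicate 3, 37 members passed, PFKL among them, and 9 changed at least 2-fold. PDK3 lay at the 2-fold mark and was under it in 8 of 18 alternatives (both upper-quartile scaling and library totals among them), and LDHB, just under the mark, was past it in 5 of 18. The shares of members called and of members past 2-fold were thus of the same order as in the whole table, and the description below rests on the single genes.

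**Figure D1:**
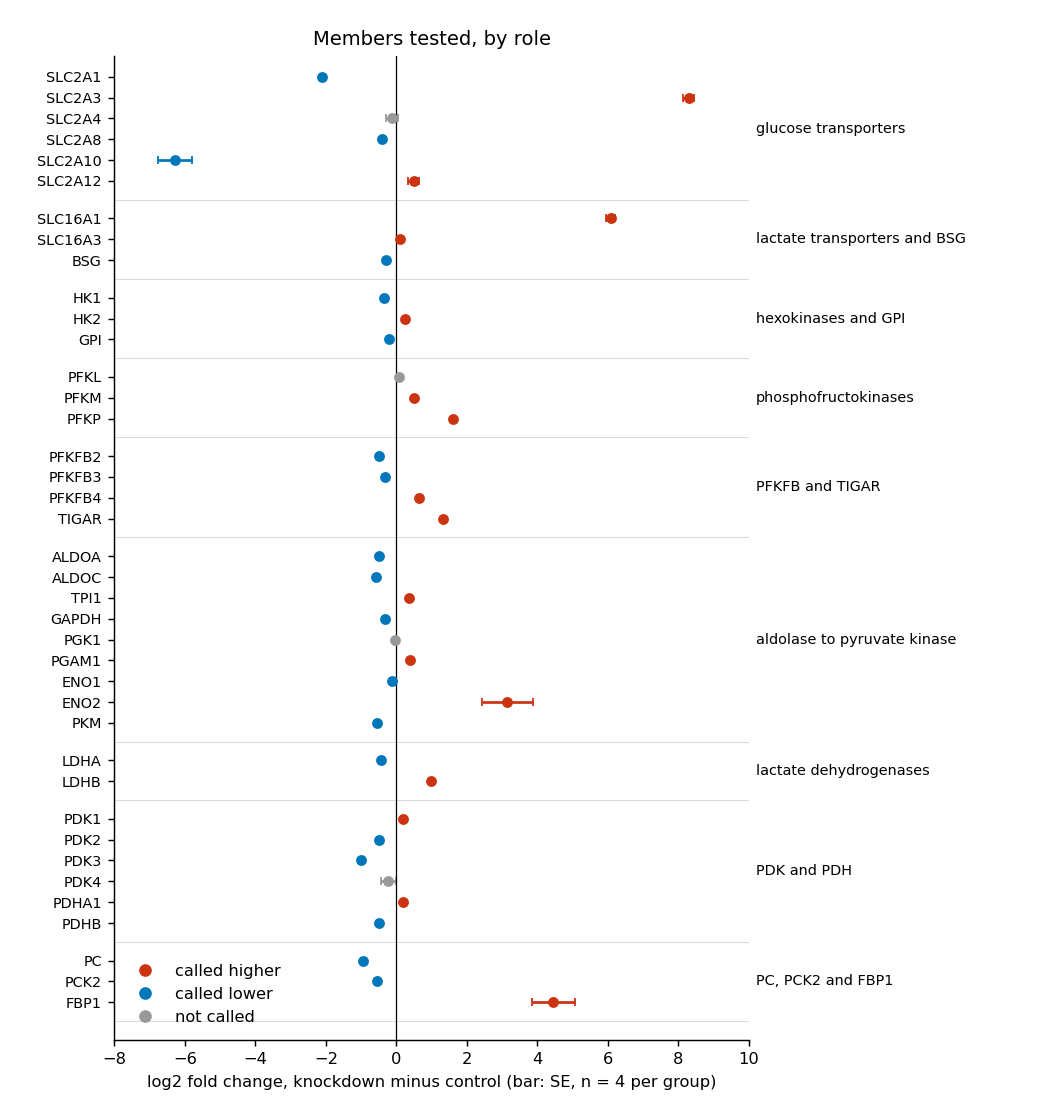
Log2 fold change (knockdown minus control, fitted by edgeR) of the 39 tested members, grouped by role, with bars of 1 SE of the log2 CPM difference; red is higher, blue lower and grey not past an adjusted p of 0.05. SLC2A3 at 8.29 and SLC16A1 at 6.08 lie highest, followed by FBP1 at 4.46 and ENO2 at 3.15, both with few counts in control. SLC2A10 at -6.27 lies far below the other members.

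Promoter sequences come first, since FOXA1 is a forkhead factor and glycolytic promoters are known for E-boxes and hypoxia response elements. RefSeq promoter entries (GRCh38.p14) were found for 37 of the 41 members, with 69 windows of the 250 bases before a start site. SLC2A3, SLC2A4, SLC16A1 and PFKFB2 had no entry. The E-box CACGTG, a site that MYC and other basic helix-loop-helix factors are known to bind, stood in 13.04% of the member windows and in 6.345% of all 35114 windows. It was found in the windows of 9 members, of which HK2 was called higher in knockdown and ALDOA, ALDOC, BSG, GAPDH, LDHA, PDHB, PDK2 and PFKFB3 were called lower. Of the members in the table, 14 were called higher and 18 lower. Sites of 30 bases are shown 5′ to 3′ on the gene's strand, with the motif in capitals, for enzymes at the head, middle and end of the pathway. Genes have several annotated starts, so a site before a later start can lie inside the gene: in GENCODE 29 the LDHA and ALDOA sites overlap an exon of a longer transcript, and the GAPDH, PDK2 and HK2 sites lie in an intron. For the LDHA site at 18394366-18394395 only the last bases overlap. The gene starts at 18394388, so the motif itself lies just before it.
LDHA, chr11:18394464-18394493 (+): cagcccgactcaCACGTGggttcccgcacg
LDHA, chr11:18394366-18394395 (+): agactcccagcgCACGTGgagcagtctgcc
GAPDH, chr12:6535171-6535200 (+): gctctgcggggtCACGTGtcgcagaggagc
ALDOA, chr16:30064373-30064402 (+): tggcagggaggcCACGTGatccgagtcccc
PDK2, chr17:50095210-50095239 (+): cccgggggaagcCACGTGccggggcggaag
HK2, chr2:74834964-74834993 (+): gattgctgcgccCACGTGggagggagcccc
HK2, chr2:74835009-74835038 (+): ttccggcgagagCACGTGgagagaatcgtg

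The hypoxia response core ACGTG, part of every CACGTG, was in 34.78% of the member windows and 18.51% of all windows, whereas the other core searched, GCGTG, was in 28.99% and 32.22%. The member windows were also richer in C and G than the table as a whole, with a median of 67.6% GC and 20 CpG beside 58.0% and 11, and the part of that composition in the motif shares was not tested. Each motif was searched on both strands. Forkhead letters were rare: TGTTTAC was in 1.449% of the member windows and 2.979% of all windows, and TATTTAC was in 1.449% and 2.395%. Those matches lay in 1 window each, of BSG and of PFKP, and both are on the reverse strand, so the capitals show the reverse complement. The BSG site lies outside the GENCODE 29 gene, just before it, and the PFKP site lies in an intron.
BSG, chr19:571179-571208 (+): tctgagtctcaGTAAACAagtttcccgccg
PFKP, chr10:3104438-3104467 (+): catgtggaatgGTAAATAgaataagtgtct
A match describes these letters in this window and shows no binding.

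Of the 6 glucose carriers, 2 were higher in knockdown, 3 were lower and 1 did not pass, and 3 changed at least 2-fold. SLC2A1, the GLUT1 carrier that serves basal glucose uptake in most cells (ENSG00000117394, chr1:42925375-42959176, minus strand), was at 487, 469, 504 and 483 CPM in the 4 control libraries and at 110, 113, 112 and 114 CPM in the 4 knockdown libraries. Every control library was thus far above every knockdown library, and the knockdown level was 23.0% of the control level. The fall was 4.34-fold, a log2 fold change of -2.12 (SE 0.025, edgeR adjusted p = 9.16e-26).

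SLC2A3, the high-affinity GLUT3 carrier best known from neurons (ENSG00000059804, chr12:7919230-7936275, minus strand), moved the other way. It had 22, 15, 25 and 23 counts in the control libraries, near 1 CPM, and 304, 301, 302 and 309 CPM in the knockdown libraries. That is a 315-fold rise, with a log2 fold change of 8.29 (SE 0.17, edgeR adjusted p = 1.71e-31). SLC2A14, its near-identical neighbour on chromosome 12, rose from between 0.237 and 0.636 CPM to between 3.24 and 4.16 CPM, and reads could be split between these genes, so both values are uncertain by that split. The sum is carried by SLC2A3, which had by far the larger counts.

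SLC2A10, the GLUT10 carrier of intracellular membranes, had 84, 80, 94 and 85 counts in control and 2, 1, 1 and 0 counts in knockdown. The ratio of control to knockdown was 86.8, with a 95% counting interval of 33.6 to 320.3, which covers counting error only. SLC2A8, another carrier of inner membranes, was at 31.9 to 36.1 CPM in control and 24.7 to 25.8 CPM in knockdown (log2 fold change -0.40). SLC2A12 was at 3.28 to 4.99 CPM and 4.76 to 6.06 CPM. Its call as higher (log2 fold change 0.49, edgeR adjusted p = 0.00111) came with overlapping groups, an exact two-sided permutation p of 0.0571, and 1736 bases of exon shared with TBPL1 on the other strand. SLC2A4, the insulin-responsive GLUT4, was at 1.38 to 1.85 CPM and 1.16 to 1.96 CPM and did not pass (edgeR adjusted p = 0.573).

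Among the lactate carriers, SLC16A1, the MCT1 carrier that moves lactate and other monocarboxylates in either direction (ENSG00000155380, chr1:112911847-112957013, minus strand), was at 1.92, 2.91, 2.42 and 2.76 CPM in control and at 168, 169, 171 and 172 CPM in knockdown. The 4 knockdown libraries lay close together and no control library came near them. The rise was 68.0-fold (log2 fold change 6.08, SE 0.13, edgeR adjusted p = 2.49e-29).

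SLC16A3, the MCT4 exporter of strongly glycolytic cells, was at 176, 173, 187 and 176 CPM in control and at 189, 194, 190 and 189 CPM in knockdown. The groups did not overlap, but the rise was small, with a log2 fold change of 0.10 (SE 0.026, edgeR adjusted p = 0.0113). It did not pass without control replicate 1 (adjusted p = 0.0528) or control replicate 2 (adjusted p = 0.0615), and SLC16A3 shares 482 bases of exon with CSNK1D on the other strand. BSG, the basigin chaperone that both carriers need to reach the cell surface, fell from 302, 281, 320 and 295 CPM in control to 245, 235, 247 and 251 CPM in knockdown (log2 fold change -0.29, edgeR adjusted p = 1.55e-07), and this call was lost when the change of its chromosomal neighbours was taken off, as described further on. SLC16A7, the MCT2 carrier, had 11, 12, 8 and 15 counts in control and 6, 9, 3 and 4 counts in knockdown, too few for the test.

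**Figure D2:**
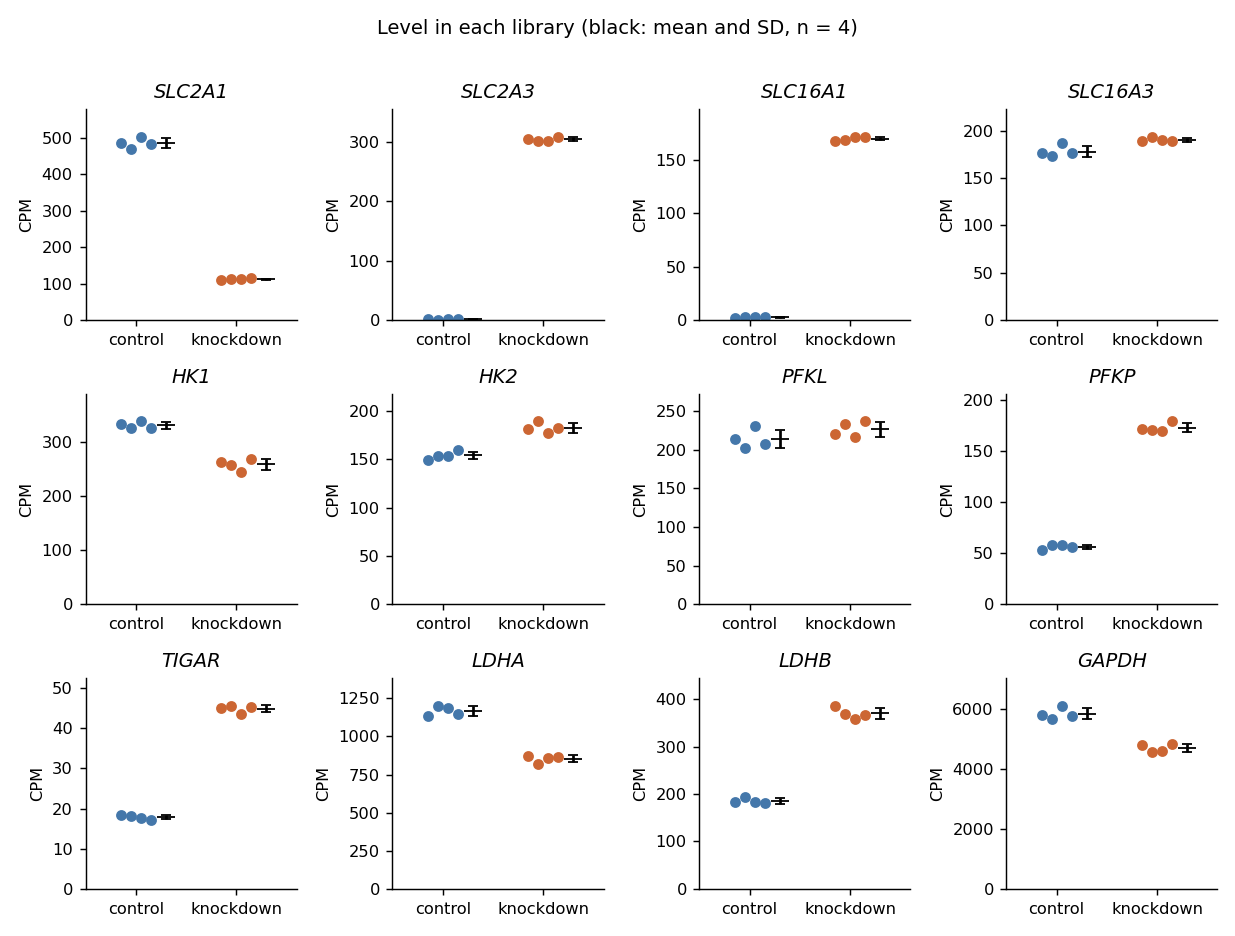
CPM of 12 members in each library on linear axes that start at 0, with the mean and SD of the 4 libraries of a group in black beside the points. The control and knockdown points of SLC2A1, SLC2A3, SLC16A1, PFKP and LDHB lie apart with small spread inside each group.

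At the entry to the pathway, HK1, the hexokinase of most tissues, was at 334, 325, 338 and 325 CPM in control and at 263, 258, 244 and 269 CPM in knockdown. HK2, the isozyme that is low in most adult tissues and raised in many tumours, was at 150, 154, 154 and 159 CPM in control and at 182, 190, 177 and 182 CPM in knockdown. The groups did not overlap for either gene, and their directions were opposite: log2 fold change -0.35 for HK1 (SE 0.033, edgeR adjusted p = 1.05e-09) and 0.25 for HK2 (SE 0.027, edgeR adjusted p = 6.2e-07). GPI, which turns glucose 6-phosphate into fructose 6-phosphate, fell from 668, 639, 683 and 654 CPM to 575, 567, 569 and 592 CPM (log2 fold change -0.20, edgeR adjusted p = 3.95e-06). HKDC1, a further hexokinase, gave 2, 0, 1 and 1 counts over the controls and none over the knockdown libraries, at or under the 3-count floor in both groups.

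Phosphofructokinase catalyses the committing step, and its platelet-type gene stood out. PFKP (ENSG00000067057, chr10:3066333-3137712, plus strand) was at 53.0, 57.7, 58.0 and 56.5 CPM in control and at 172, 171, 170 and 180 CPM in knockdown. All 4 knockdown libraries were about the same distance above all 4 controls, a 3.07-fold rise (log2 fold change 1.62, SE 0.035, edgeR adjusted p = 4.13e-22). PFKM, the muscle-type gene, rose from 107 to 119 CPM to 156 to 160 CPM (log2 fold change 0.50, edgeR adjusted p = 6.33e-12). It shares 628 bases of exon with SENP1 on the other strand. PFKL, the liver-type gene, was at 214, 203, 230 and 208 CPM in control and at 220, 233, 216 and 237 CPM in knockdown, with overlapping groups (log2 fold change 0.08, edgeR adjusted p = 0.0608), and it passed with control replicate 3 left out (adjusted p = 0.0037), with library totals alone (adjusted p = 0.000548) and without the filter on low counts (adjusted p = 0.0481).

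The enzymes that set fructose 2,6-bisphosphate, the main activator of phosphofructokinase, were split. PFKFB2, the heart-type kinase and phosphatase, fell from 80.6 to 82.9 CPM to 53.3 to 60.1 CPM (log2 fold change -0.50). It shares 315 bases of exon with YOD1 on the other strand, which had a mean of 992 counts where PFKFB2 had 1547. PFKFB3, the inducible form with strong kinase activity, fell from 51.6, 48.7, 56.0 and 49.8 CPM to 40.9, 40.97, 41.3 and 41.8 CPM (log2 fold change -0.32). PFKFB4 rose from 5.45 to 6.27 CPM to 8.52 to 9.99 CPM (log2 fold change 0.65). TIGAR, a p53-responsive phosphatase that lowers fructose 2,6-bisphosphate, was at 18.4, 18.1, 17.5 and 17.2 CPM in control and at 44.9, 45.6, 43.6 and 45.2 CPM in knockdown. It was thus higher in every knockdown library, 2.52-fold (log2 fold change 1.33, SE 0.025, edgeR adjusted p = 2.97e-18).

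Of the 9 genes from aldolase to pyruvate kinase 8 passed, 5 lower and 3 higher, and they include GAPDH, the most abundant member. ALDOA, the main aldolase, fell from between 1639 and 1837 CPM to between 1191 and 1266 CPM (log2 fold change -0.49), and ALDOC from 34.9 to 37.1 CPM to 22.5 to 26.0 CPM (-0.58). GAPDH, often used as a reference gene, was at 5782, 5662, 6101 and 5768 CPM in control and at 4776, 4549, 4600 and 4814 CPM in knockdown. No knockdown library reached the lowest control library, and the fall of 0.32 on the log2 scale passed (SE 0.031, edgeR adjusted p = 2.66e-09).

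TPI1, which converts the triose phosphates into each other, rose from 648 to 696 CPM to 812 to 895 CPM (log2 fold change 0.37), and PGAM1, the phosphoglycerate mutase, from 225 to 242 CPM to 291 to 311 CPM (0.39). PGK1, the first ATP-forming enzyme, was at 614 to 663 CPM and 593 to 650 CPM and did not pass (log2 fold change -0.03, SE 0.036, edgeR adjusted p = 0.481). The step before the last was carried by ENO1, at 2653 to 2810 CPM in control and 2372 to 2519 CPM in knockdown (log2 fold change -0.12, edgeR adjusted p = 0.00124). That call was lost with upper-quartile scaling (adjusted p = 0.0924) and with library totals alone (adjusted p = 0.215).

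ENO2, the neuronal enolase, had 0, 2, 3 and 4 counts in control and 26, 23, 15 and 21 in knockdown, a ratio of 9.33 with a 95% counting interval of 4.69 to 21.1. PKM, whose splice forms include the tumour-type pyruvate kinase and were counted together, was at 1497, 1481, 1564 and 1510 CPM in control and at 1052, 980, 1091 and 1053 CPM in knockdown. The groups were far apart for their size, with a log2 fold change of -0.54 (SE 0.037, edgeR adjusted p = 2.82e-13). GAPDH, PGK1, PGAM1, ENO1, TPI1, LDHA, LDHB and PKM have near-identical processed pseudogenes or copies, so their levels are uncertain where reads could be assigned to either.

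The lactate dehydrogenases moved in opposite directions. LDHA encodes the M subunit, known for turning pyruvate into lactate, and LDHB the H subunit, more common in tissues that take lactate up. LDHA (ENSG00000134333, chr11:18394388-18408425, plus strand) was at 1134, 1203, 1184 and 1145 CPM in control and at 869, 823, 861 and 865 CPM in knockdown. LDHB (ENSG00000111716, chr12:21635342-21757857, minus strand) was at 184, 194, 183 and 182 CPM in control and at 387, 368, 359 and 366 CPM in knockdown. In both genes the groups were clearly apart: log2 fold change -0.45 for LDHA (SE 0.027, edgeR adjusted p = 2.59e-12) and 0.99 for LDHB (SE 0.032, edgeR adjusted p = 8.65e-19). The 1.99-fold rise of LDHB lay just under the 2-fold mark.

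At the gate to the mitochondria, PDK3 was the kinase with the largest change, from 11.95, 10.7, 11.9 and 11.7 CPM in control to 5.48, 5.65, 5.60 and 6.34 CPM in knockdown (log2 fold change -1.002, SE 0.059, edgeR adjusted p = 7.44e-11). PDK2 fell from 6.17 to 7.24 CPM to 4.34 to 5.32 CPM (log2 fold change -0.48), and PDK1, a target of HIF1 in hypoxia, rose slightly from 13.6 to 15.3 CPM to 15.7 to 16.6 CPM (log2 fold change 0.18, edgeR adjusted p = 0.0122). PDK4, the starvation-responsive kinase, was at 1.42 to 2.38 CPM and 1.38 to 2.04 CPM and did not pass (edgeR adjusted p = 0.275). Of the E1 subunits of the dehydrogenase itself, PDHA1, the alpha subunit that the kinases phosphorylate, rose from 123, 120, 125 and 123 CPM to 143, 135, 140 and 147 CPM (log2 fold change 0.20; -0.093 with the change of its chromosomal neighbours taken off), and PDHB, the beta subunit, fell from 90.2 to 96.0 CPM to 64.8 to 68.1 CPM (-0.48).

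Among the enzymes that run towards glucose or refill the citric acid cycle, PC, the mitochondrial pyruvate carboxylase, was at 61.9, 56.1, 61.0 and 56.3 CPM in control and at 29.9, 32.7, 30.05 and 29.5 CPM in knockdown. It was lower in every knockdown library, 1.93-fold (log2 fold change -0.94, SE 0.050, edgeR adjusted p = 6.36e-15), and it shares 621 bases of exon with LRFN4 on the other strand. PCK2, the mitochondrial phosphoenolpyruvate carboxykinase, fell from 31.0 to 37.0 CPM to 21.8 to 24.2 CPM (log2 fold change -0.55). FBP1, the fructose bisphosphatase that opposes phosphofructokinase, had 2, 0, 0 and 0 counts in control and 12, 14, 10 and 19 in knockdown, a ratio of 27.2 with a 95% counting interval of 7.17 to 230.0. The fitted log2 fold change was 4.46, and 6.79 without control replicate 1, which holds both control counts, so that value depends on the prior count. FBP1 overlaps PCAT7 on the other strand by 283 exon bases, and PCAT7 had a mean of 225.75 counts where FBP1 had 7.12, so reads of the overlap could weigh on this gene.

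Because isozymes differ in length, their shares were compared per kilobase of exon: each gene's CPM was divided by its merged exon length in GENCODE 29, and its share of the family's sum was taken in each library. Of the 28 shares, 20 did not overlap between the groups, while the CPM of 72.0% of all tested genes did not. Shares within a family depend on each other, so this count does not set these genes apart from the rest. Within the SLC2A members SLC2A1 held 90.6% ± 0.147 (SD, n = 4) in control and 29.2% ± 0.305 in knockdown, and SLC2A3 held 0.138% ± 0.026 and 60.9% ± 0.329. The leading glucose carrier by RNA per kilobase was thus SLC2A1 in every control library and SLC2A3 in every knockdown library. The summed level of the 6 carriers fell from 113.6 ± 3.50 to 81.1 ± 0.894 CPM per kilobase.

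In the SLC16A members the sum rose and the share of SLC16A1 rose with it, to below, near or above that of SLC16A3 depending on the length used. SLC16A3 held 97.5% ± 0.452 in control and 39.8% ± 0.416 in knockdown, and SLC16A1 held 2.32% ± 0.428 and 60.2% ± 0.428. Per kilobase of the longest transcript the knockdown shares were 50.4% for SLC16A3 and 49.6% for SLC16A1, and without division by length 52.8% and 47.1%, so which of them led in knockdown cannot be told from these counts. Their sum, with SLC16A7, was 20.3 ± 0.657 CPM per kilobase in control and 53.2 ± 0.363 in knockdown, that is 2.62-fold higher, while SLC16A3 itself was at 19.8 and 21.2 CPM per kilobase.

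In the phosphofructokinases PFKP went from 23.0% ± 1.08 to 43.3% ± 0.522 and PFKL from 47.1% ± 0.866 to 30.7% ± 0.770, so that by this length the leading gene was PFKL in control and PFKP in knockdown. The longest transcript gave the same leaders, with 43.3% for PFKP in knockdown, but without division by length PFKL led in knockdown too, with 40.7% against 31.1% for PFKP. The sum of the 3 genes rose from 50.8 ± 2.16 to 82.6 ± 1.79 CPM per kilobase. In the lactate dehydrogenases LDHB went from 24.9% ± 0.419 to 47.4% ± 0.871, and LDHA from 75.1% to 52.6%, still the larger share. Without division by length LDHB went from 13.7% to 30.2%. The summed level per kilobase overlapped between the groups, with 244 to 259 CPM in control and 256 to 270 in knockdown, whereas the plain sum of CPM fell from between 1317 and 1398 to between 1190 and 1256 without overlap.

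Smaller shifts were seen elsewhere. HK1 held 67.4% ± 0.877 of the hexokinase sum in control and 57.7% ± 0.976 in knockdown, PDK3 held 47.0% ± 1.26 and 33.2% ± 1.57 of the PDK sum, and PDK1 held 19.4% ± 1.78 and 31.1% ± 1.49. PFKFB4 held 5.54% ± 0.255 of the PFKFB sum in control and 10.8% ± 0.814 in knockdown, while the share of PFKFB3 overlapped at 48.3% ± 1.58 and 48.4% ± 0.882. ALDOA kept 97.3% and 97.4% of the sum of ALDOA and ALDOC. ENO1 kept over 99.9% of the sum of ENO1 and ENO2 in every library. By group means per kilobase of merged exon, the isozyme in the lead of each of these families was thus the same in both groups. Single libraries differed: PDK1 passed PDK3 in knockdown replicate 1 (31.47% and 31.37%), and PFKFB2 passed PFKFB3 in control replicate 2 (47.78% and 46.96%). With the longest transcript the lead did change from control to knockdown, from PDK3 to PDK2 and from PFKFB2 to PFKFB3. Isozymes outside the members are not in these sums. The sums fell in the aldolases (449.6 to 320.4 CPM per kilobase), the PFKFB genes (17.4 to 13.9) and the PDK genes (4.97 to 3.51), without overlap between groups.

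**Figure D3:**
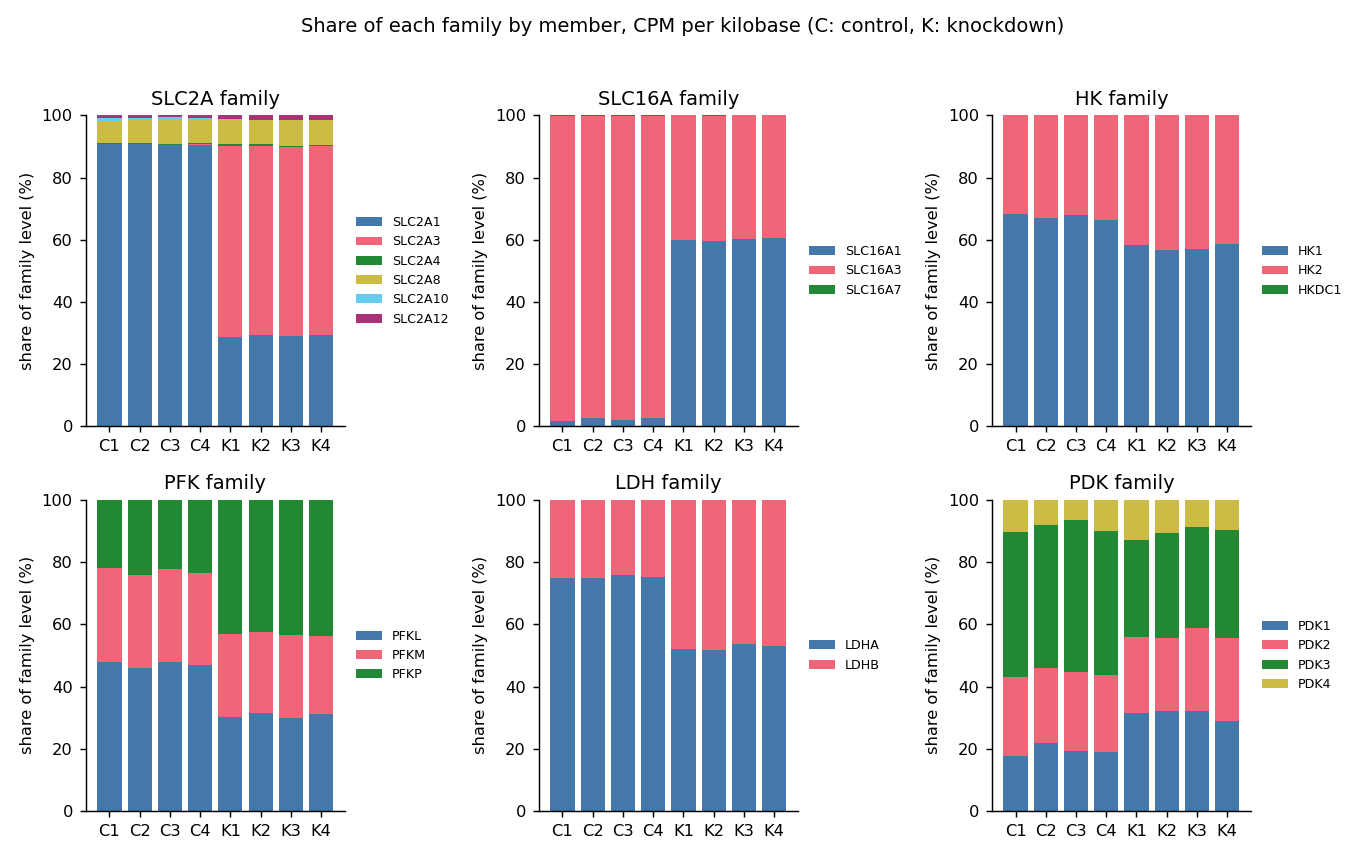
Share of each isozyme in its family's summed CPM per kilobase, in percent, with 1 bar for each control (C) and knockdown (K) library, for 6 families. SLC2A3 and SLC16A1 hold 60.9% and 60.2% of their families in knockdown by merged exon length (the latter 47.1% without division by length), and LDHB and PFKP hold 47.4% and 43.3%.

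Around the members, 87 further genes of glucose metabolism were listed, of which 83 were in the table and 66 were tested. Of these, 22 were higher in knockdown, 34 were lower and 10 did not pass, that is 84.8% called beside 77.1% of all genes, and 22 changed at least 2-fold (33.3% beside 28.3%). The genes named from each sub-list are the ones with the largest change of at least 2-fold, at most 3 a sub-list.

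Among other transporters and isozymes 17 of 18 passed, 9 higher and 8 lower. EMB, embigin, a relative of BSG that also accompanies monocarboxylate carriers, was at 18.5, 15.3, 16.4 and 18.1 CPM in control and at 1.32, 1.47, 1.58 and 1.71 CPM in knockdown (log2 fold change -3.49). Both chaperones of the SLC16A carriers were thus lower in knockdown while SLC16A1 was higher. SLC16A9, a more distant carrier of the family, gave 42, 35, 28 and 41 counts over the controls and 0 over the knockdown libraries, which is at least 49.3-fold lower against 3 counts over the group.

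In the pentose phosphate branch, which leaves glycolysis at glucose 6-phosphate and makes NADPH, all 7 genes passed, 4 higher and 3 lower. In glycogen and glucose 1-phosphate metabolism 10 of 11 passed, 4 higher and 6 lower. PYGL, the liver-type glycogen phosphorylase, was at 56.0 to 58.1 CPM in control and 6.32 to 6.93 CPM in knockdown (-3.09), PPP1R3B, a glycogen-targeting subunit of protein phosphatase 1, at 22.5 to 25.4 CPM and 5.28 to 5.70 CPM (-2.14), and PGM2L1, which makes glucose 1,6-bisphosphate, at 3.61 to 5.36 CPM and 0.901 to 1.73 CPM (-1.97). GYS1, the glycogen synthase of muscle and most other tissues, is named here after its values were seen: it rose from 81.7 to 87.4 CPM to 228 to 255 CPM (1.498).

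Of the 13 regulators tested, 12 passed, 3 higher and 9 lower. EGLN3, an oxygen-sensing prolyl hydroxylase of the HIF proteins, fell from 5.43 to 6.46 CPM to 0.451 to 0.648 CPM (log2 fold change -3.41). STAT3, a transcription factor of cytokine signalling, fell from 485 to 511 CPM to 94.9 to 107 CPM (-2.32), and MLX, the partner of the glucose-sensing factors MLXIP and MLXIPL, from 60.6 to 63.8 CPM to 26.5 to 30.8 CPM (-1.10).

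Of the 7 known hypoxia-inducible genes outside glycolysis that were tested, 1 was higher and 4 were lower (71.4% called beside 77.1% of all genes). CA9, outside the rule for naming genes, had too few counts for the test, with 32 over the controls and 0 over the knockdown libraries. NDRG1 fell from 220 to 236 CPM to 43.1 to 45.5 CPM (-2.36), ANKRD37 was at 1.32 to 1.68 CPM and 0.463 to 0.723 CPM (-1.31), and ADM, adrenomedullin, rose from 5.69 to 6.55 CPM to 15.7 to 16.7 CPM (1.41). Pyruvate entry into the mitochondria had 5 of 8 genes past the threshold, 1 higher and 4 lower, none of them 2-fold. In the gluconeogenesis list neither of the 2 genes tested passed with edgeR, G6PC3 (adjusted p = 0.206) or SLC37A4 (adjusted p = 0.778).

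**Figure D4:**
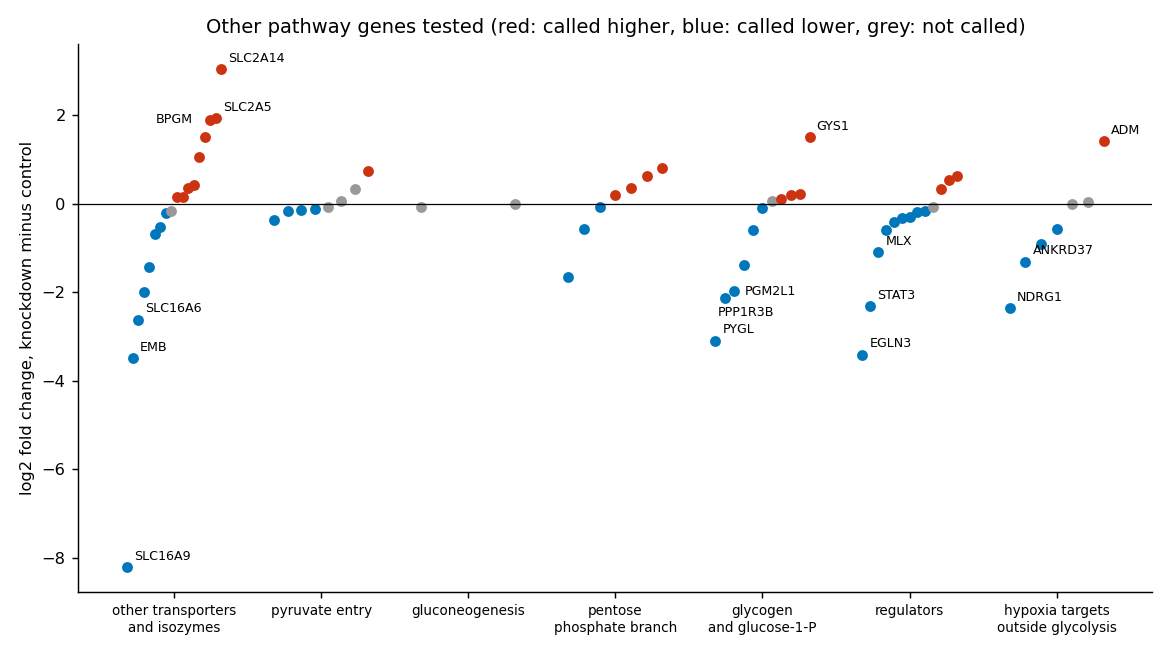
Log2 fold change (knockdown minus control) of the 66 tested genes outside the members, by sub-list, in order of size within each; red is higher, blue lower, grey not past an adjusted p of 0.05. SLC16A9 at -8.20 has no count in knockdown, so its fitted value depends on the prior count.

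SKBR3 is known to carry many gains and losses of chromosome segments. Each tested member was set beside its 50 nearest tested genes on the chromosome, by their median log2 fold change. These medians ran from -0.45 to 0.62, and 26 of the 39 members had the same sign as their neighbours. The neighbours of GPI, PFKFB3 and PFKP lay highest, at 0.62, 0.58 and 0.56.

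The changes of SLC2A1, SLC2A3, SLC16A1, TIGAR and LDHB were far from those of their surroundings. The neighbours of SLC2A1 had a median of -0.09, those of SLC2A3 0.32, those of SLC16A1 0.14, those of TIGAR 0.13 and those of LDHB 0.03. With the neighbours' median taken off as an offset, SLC2A1 had a log2 fold change of -2.03, SLC2A3 7.97, SLC16A1 5.94, TIGAR 1.20 and LDHB 0.97. PFKP, whose neighbours lay at 0.56, went from 1.62 to 1.06 with that offset. The medians beside SLC2A10, PDK3, ENO2 and FBP1 were -0.24, 0.25, 0.26 and -0.45.

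Several members with small changes lay on the same side as their neighbours, and the offset brought their values closer to 0. LDHA went from -0.45 to -0.076, PC from -0.94 to -0.50, PKM from -0.54 to -0.29, HK2 from 0.25 to 0.14, PGAM1 from 0.39 to 0.12, TPI1 from 0.37 to 0.11, PFKFB4 from 0.65 to 0.42 and PCK2 from -0.55 to -0.35, each still past an adjusted p of 0.05 with edgeR. GPI, GAPDH, HK1, PFKFB3 and PDK2 lay against their neighbours, and their falls grew to -0.82, -0.64, -0.71, -0.90 and -0.75, while SLC16A3 rose to 0.35 and ENO1 went to -0.23. BSG (0.058), SLC2A8 (0.041) and PDK1 (-0.066) lost their call and changed sign, PDHA1 changed sign to -0.093 and still passed, and PFKL changed sign to -0.31 and passed. For these members the direction in the whole table and the direction relative to the surrounding genes were not the same.

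**Figure D5:**
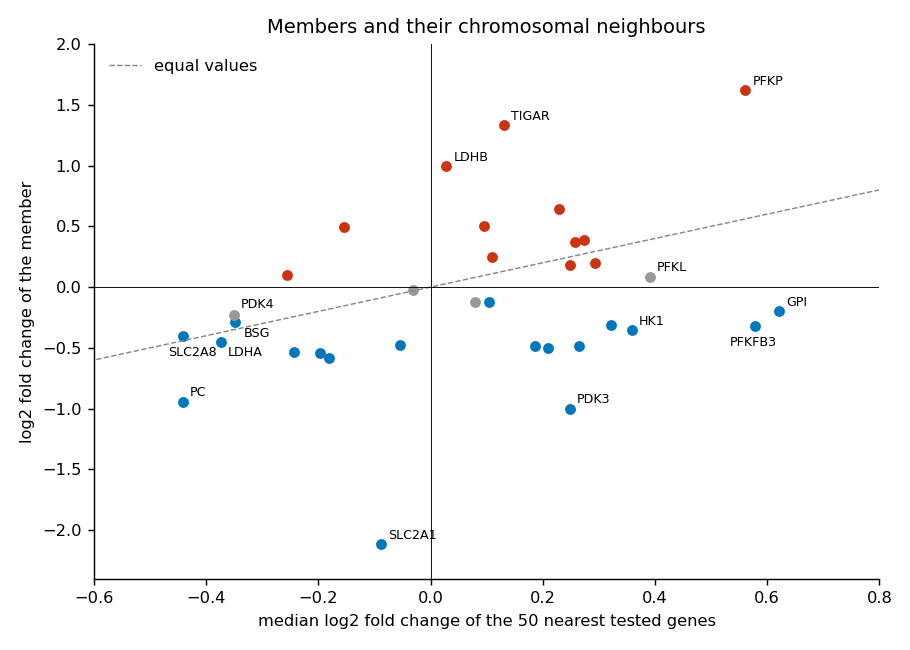
Log2 fold change of each tested member against that of its 50 nearest tested genes (their median), with a dashed line of equal values; red is higher, blue lower, grey not past an adjusted p of 0.05. LDHA, BSG and SLC2A8 lie near the line, while PFKP, TIGAR, LDHB and SLC2A1 lie far from it; SLC2A3, SLC2A10, SLC16A1, ENO2 and FBP1 fall outside the vertical range shown.

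The 41 members took 1.68% to 1.78% of all counts in the control libraries and 1.56% to 1.62% in the knockdown libraries, without overlap. GAPDH, ENO1, ALDOA, PKM and LDHA, the 5 members with the highest CPM in control, were all called lower with the scaling used, the call of ENO1 alone being lost with upper-quartile scaling or library totals. Counts of mitochondrially encoded genes, a sign of library quality, were 0.272% to 0.293% of the total in control and 0.233% to 0.255% in knockdown.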

How the data were processed

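RNA was taken with Trizol and sequenced as paired-end reads from mRNA libraries, per the labels' protocols. What the authors deposited is a table of raw counts by Ensembl identifier and symbol. FastQC, Salmon 1.9, DESeq2 3.16 and hg38 are named, with no role, in the submitters' processing notes; the annotation release and the use of strand are not given in the sources used here. All columns were matched to samples by name. GENCODE 29 (GRCh38) gave positions and exon lengths for 29358 identifiers (96.5%). Promoters come from a RefSeq table of GRCh38.p14.

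Genes were filtered with filterByExpr (minimum 10 counts, total 15 counts), scaled by TMM (factors 0.965 to 1.04) and tested with edgeR 4.0.16 in R 4.3.3 (glmQLFit, robust, glmQLFTest). P-values were adjusted by Benjamini-Hochberg over 16430 genes, at 0.05. Fitted fold changes use a prior count of 0.125. CPM is the count per 1000000 of the TMM-scaled total, and SEs come from log2 CPM with 0.5 added to counts. The biological coefficient of variation was 4.56%. The floor of 3 counts equals 0.123 to 0.153 CPM by library, and intervals at 95% and floors cover counting error only. On simulated counts for 16430 genes, 195 of 200 changed genes (97.5%) were recovered for this comparison, with 14 false calls (6.70% of calls). The changed genes were drawn from those with higher counts, and all genes shared the same dispersion. In the data 77.1% of genes were called, so these rates do not measure the error of the real calls, least of all at low counts.

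The alternatives tried were scaling by RLE, by upper quartile or by library size alone, 2 filters, DESeq2 1.42.0, voom in limma 3.58.1, no robust estimation, a replicate block, a neighbour offset, other lengths for the shares and leaving out each library. Members with a 2-fold change, the member with the highest control level per length in each role, and LDHA, LDHB, GAPDH, PKM, HK1, HK2 and SLC2A1 are given library by library. The pathway genes named are the called ones with at least a 2-fold change, at most 3 a sub-list by size; a gene that this rule covers is not reported here. The members and lists were chosen with earlier results of these data known.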

Additional observations from a re-analysis of the deposited data

Results flagged for a closer look

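In 7 of 78 groups of 4 libraries (39 tested members in control and in knockdown), the highest or lowest library was further from its nearest neighbour, as a share of the group's range, than Dixon's 95% critical value for 4 samples allows. Chance flags about 1 in 20 groups, which is 3.9 of 78.

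PFKP was high in knockdown replicate 4, at 179.6 CPM where the other knockdown libraries had 170.0 to 171.5 (share of the range 0.842). ENO1, the main enolase, was high in control replicate 3, at 2810 CPM beside 2653 to 2663 (0.938), and low in knockdown replicate 2, at 2372 CPM beside 2503 to 2519 (0.896). These ENO1 libraries lie on the outer sides of the 2 groups. LDHB was high in control replicate 2, at 194.5 CPM beside 182.1 to 183.5 (0.882). PDHB, the beta subunit of pyruvate dehydrogenase, was low in knockdown replicate 1, at 64.8 CPM beside 67.8 to 68.1 (0.886), and PC, pyruvate carboxylase, was high in knockdown replicate 2, at 32.7 CPM beside 29.5 to 30.05 (0.834). FBP1 had 2 counts in control replicate 1 and 0 in the other control libraries (1.0). For PFKP, LDHB, PDHB, PC and FBP1 the knockdown and control libraries did not overlap with these libraries included.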

How the results depend on the processing

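Of the 39 tested members, 30 kept their direction and their side of the threshold in every alternative that tested them. The number of members called was 33 to 37 over all alternatives (34 to 37 when 1 library was left out), and the number changed at least 2-fold was 6 to 10, beside 35 and 9. The 6 came with a mean of at least 50 counts, where fewer genes are tested. Pathway genes called were 50 to 59, beside 56. The neighbour offset gave SLC2A8 0.041, BSG 0.058, PFKL -0.31, PGK1 0.0046, PDK1 -0.066, PDK4 0.12 and PDHA1 -0.093 on the log2 scale, all opposite to the value without it. PGK1 was at 0.032 with upper-quartile scaling, 0.057 with library totals, and -0.050 to 0.00094 with a library left out, the last without knockdown replicate 2. Those scalings moved the median of all genes from 0.02 to 0.079 and to 0.10. The length used decided the leader in knockdown for SLC16A (SLC16A1 up by 57.8 percentage points with merged exons, 48.1 with the longest transcript, 45.7 without division) and PFK (PFKP up by 20.3, 19.9 and 16.3). The same held for PDK, led in knockdown by PDK3 (33.2%), PDK2 (33.3%) and PDK1 (56.9%) with these lengths in turn. PFKFB was led in knockdown by PFKFB3 (48.4% and 46.0%) with either length and by PFKFB2 (53.4%) without division. Some shares near no change turned: SLC2A8 (-0.661 percentage points) and PDK2 (-2.56) without division by length, PFKFB3 with the longest transcript (-0.360), and with libraries left out PFKFB3 (-0.359 to 0.807) and PDK2 (-0.137 to 0.9603). Apart from the offset, the lengths and the fewer samples, the cause was not tested. Same-numbered libraries did not deviate together (r 0.020, 0.056, -0.031 and -0.00064), so no shared effect of the numbers was seen. A small one could be missed and the labels give the numbers no meaning, so whether they pair the samples is not known. With a replicate block 35 members were called, 9 of them at least 2-fold, and 54 pathway genes. A sum under 100 counts in at least 1 group limits SLC2A3, SLC2A10, ENO2, FBP1, SLC16A7 and HKDC1.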
